A study of Arabidopsis thaliana with 24 samples.

Results

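The genes described here are 10 salicylic acid defence genes of Arabidopsis, of 26405 genes with reads in at least 1 of 24 RNA-Seq libraries. They were chosen by name, but with earlier results of these data known. Shares of members set beside those of all genes are therefore descriptions only. They are ICS1, EDS5, EDS1, PAD4, SARD1, NIMIN1, NIMIN2, PR1, PR2 and PR5, and all 10 had reads in at least some libraries. The study asked how genome duplication changes gene expression with and without salt, and sequenced roots and shoots of diploid and neo-tetraploid wild-type Col-0 plants. In neo-tetraploids the whole genome has been doubled, and the wild-type ones were taken over from earlier work. Plants of both ploidies grew for 2 weeks on agar with diluted Hoagland nutrients and sucrose, either without added NaCl (control) or with 35 mM NaCl. This gave 8 groups of 3 libraries: diploid control, diploid NaCl, neo-tetraploid control and neo-tetraploid NaCl, each in roots and in shoots. Each replicate held pooled plants of a single experiment, so p-values measure the spread between pooled samples of that experiment. The sources do not say how many neo-tetraploid lines were sequenced. No pathogen and no salicylic acid was applied in any group.

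Salicylic acid is a plant hormone best known from leaves attacked by biotrophic pathogens, where it triggers local and systemic resistance. Most of it is made through isochorismate: ICS1 makes isochorismate in the chloroplast, EDS5 exports the product to the cytosol, and later steps there release the hormone. EDS1 and PAD4 form a lipase-like protein pair that passes on signals from immune receptors and promotes hormone production, and SARD1 is a transcription factor that, with its relative CBP60g, activates ICS1. Salicylic acid is perceived by NPR proteins. NIMIN1 and NIMIN2 are small proteins that bind the receptor NPR1, and NPR1 with TGA factors switches on the pathogenesis-related genes PR1, PR2 (a beta-1,3-glucanase) and PR5 (a thaumatin-like protein), which serve as the standard readout of the pathway.

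The libraries held between 11202503 and 11909554 counts, with a median of 11461800. Levels are given as FPKM, the deposited read level scaled for transcript length and library size, and a gene without reads in a library is listed at 0. The organ labels fitted their markers. The summed level of 9 root genes, including Casparian strip genes and root hair genes, was 275 to 535 FPKM in roots and 3.86 to 5.86 FPKM in shoots, and that of 6 photosynthesis genes was 38309 to 46377 FPKM in shoots and 87.8 to 328 FPKM in roots.

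The genes lie on 4 chromosomes of the TAIR10.1 assembly. ICS1 (AT1G74710, listed there as EDS16) is at chr1:28070295-28074177, SARD1 (AT1G73805) at chr1:27744790-27749248, NIMIN1 (AT1G02450) at chr1:497917-498539 and PR5 (AT1G75040) at chr1:28177670-28179022. PR1 (AT2G14610) is at chr2:6241640-6242541. EDS1 (AT3G48090) is at chr3:17755329-17758147, PAD4 (AT3G52430) at chr3:19431095-19434450, NIMIN2 (AT3G25882) at chr3:9470357-9471039 and PR2 (AT3G57260, listed as BGL2) at chr3:21188397-21189967, while EDS5 (AT4G39030) is at chr4:18185437-18189224. EDS1 has a close copy, AT3G48080, just beside it, and reads of these copies may have been split between them.

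The 250 bases before the annotated start are shown for 3 of the genes: ICS1, the entry into the pathway; SARD1, the member with the clearest organ difference that was above the counting floor in both organs; and NIMIN2, the only member called between the ploidies. They were read from the RefSeq TAIR10.1 genome at chr1:28070045-28070294 (plus strand) and at chr1:27749249-27749498 and chr3:9471040-9471289 (minus strand), and are written 5′ to 3′ on the strand of the gene. Capitals mark matches, on either strand, to TTGAC (the core of the W box that WRKY factors bind), TGACG (the core of the TGA factor site) and GAAATTT (a motif bound by CBP60g and SARD1).
ICS1: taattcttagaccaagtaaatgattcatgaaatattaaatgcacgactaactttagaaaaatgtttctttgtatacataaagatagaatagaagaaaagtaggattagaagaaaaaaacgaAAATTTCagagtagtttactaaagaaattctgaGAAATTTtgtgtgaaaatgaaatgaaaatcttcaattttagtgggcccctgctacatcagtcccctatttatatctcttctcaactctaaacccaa
SARD1: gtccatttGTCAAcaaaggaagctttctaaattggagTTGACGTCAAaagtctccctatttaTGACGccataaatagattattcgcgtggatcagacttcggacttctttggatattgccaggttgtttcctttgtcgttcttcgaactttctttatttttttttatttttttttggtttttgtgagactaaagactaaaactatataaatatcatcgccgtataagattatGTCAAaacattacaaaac
NIMIN2: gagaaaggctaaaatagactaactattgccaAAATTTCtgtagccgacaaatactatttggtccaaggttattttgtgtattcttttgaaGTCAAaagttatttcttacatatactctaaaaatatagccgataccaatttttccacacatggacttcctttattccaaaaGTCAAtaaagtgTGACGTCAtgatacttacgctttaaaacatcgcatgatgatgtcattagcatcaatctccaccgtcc

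ICS1 held 2 matches to GAAATTT, at -129 to -123 and -96 to -90 counted from the annotated start, and none to the other motifs. NIMIN2 held 1 match to GAAATTT at -219 to -213, 2 to TTGAC and a palindrome at -67 to -60 that matches TGACG on both strands. SARD1 held 4 matches to TTGAC and 3 to TGACG. In SARD1 the run at -213 to -204 is made of overlapping matches to both motifs on both strands, so it was counted under each. Over the windows of 9 of the genes, TTGAC was found in 5, TGACG in 2 and GAAATTT in 2. Of 27443 windows of the same length before protein-coding genes, 44.9% held TTGAC, 18.6% held TGACG and 12.5% held GAAATTT. These matches describe letters only, and no binding was measured.

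**Figure D1:**
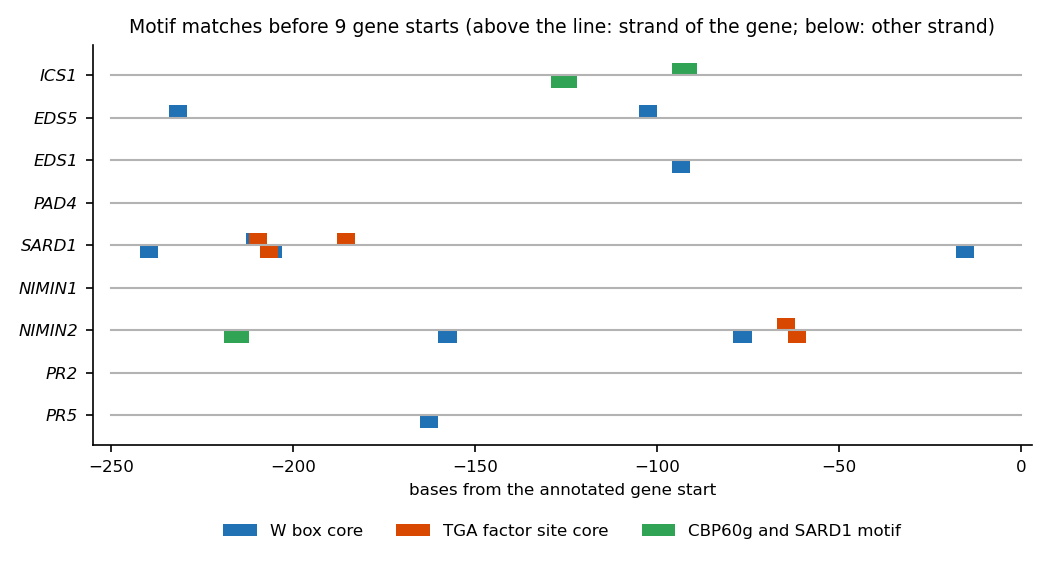
Positions of the motif matches in the 250 bases before the annotated start of 9 of the genes (x axis: bases from the start; each line 1 gene). Boxes above a line are matches on the strand of the gene and boxes below it on the other strand. Matches cluster in SARD1 and NIMIN2, and PAD4, NIMIN1 and PR2 have none.

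The genes for making the hormone and passing on its signals were expressed in both organs, whereas the readout genes were found almost only in shoots. In roots, EDS1 had the highest level, with a median of 23.6 FPKM over the 12 root libraries (19.8 to 30.98), followed by EDS5 (15.9), PAD4 (15.8), NIMIN2 (8.93), ICS1 (7.81), SARD1 (1.60) and NIMIN1 (0.850), and PR1, PR2 and PR5 had medians of 0. In shoots the order was EDS1 with a median of 17.9 FPKM (11.4 to 48.6), SARD1 (12.1), ICS1 (8.21), PR2 (6.25), PAD4 (6.08), PR5 (6.02), EDS5 (4.67), NIMIN2 (2.49), PR1 (0.350) and NIMIN1 (0.170). The ranges of neighbours in these orders overlapped in shoots throughout. In roots the ranges of neighbours overlapped except between ICS1 (5.48 to 12.2) and SARD1 (0.510 to 4.09), and between NIMIN1 (0.170 to 1.87) and PR1, which had no read in any root library.

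**Figure D2:**
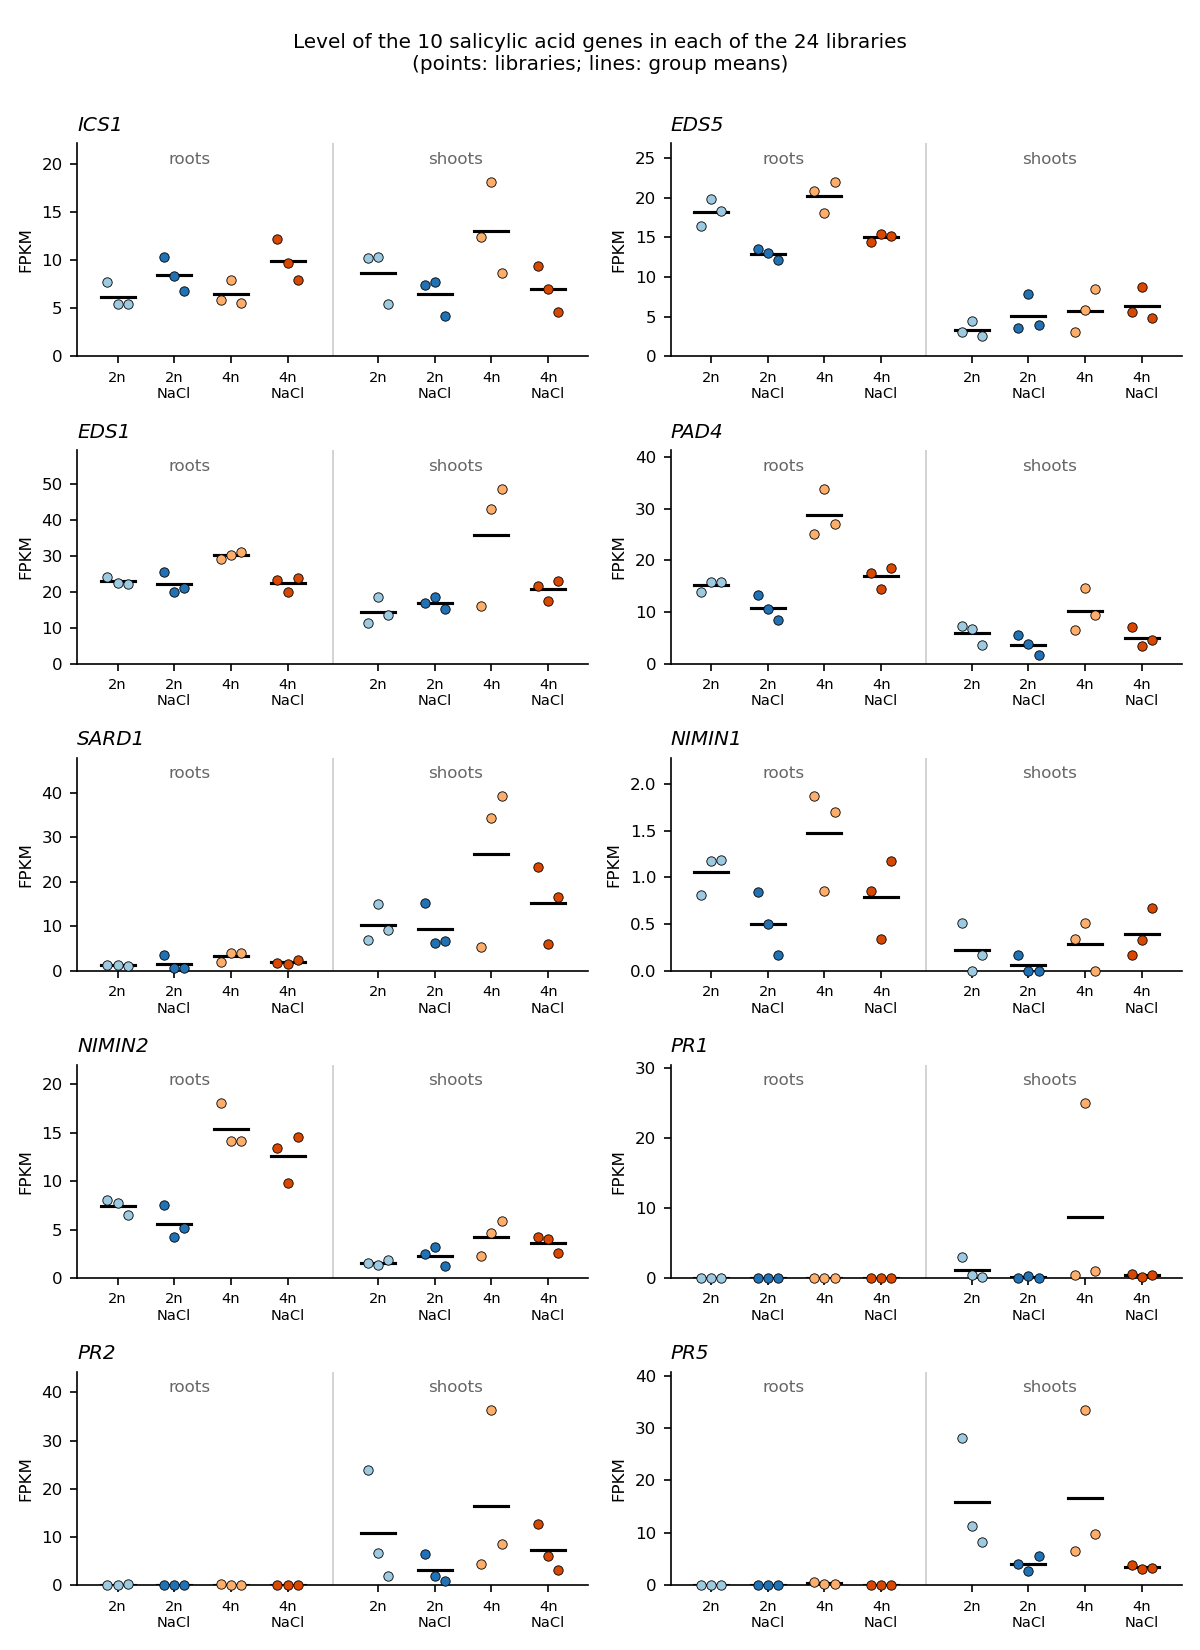
FPKM of each gene (y axis, linear, a scale of its own per gene) in the 24 libraries, by organ, ploidy (2n, 4n) and NaCl. Points are libraries and lines are means of 3. PR1, PR2 and PR5 lie at or near 0 in all root groups, NIMIN2 is higher in the 4n than in the 2n root groups, and in shoots 1 neo-tetraploid control library stands far above the others for PR1.

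To compare the organs, all 24 libraries were fitted together with edgeR's quasi-likelihood test on the estimated counts, and a gene was called where its Benjamini-Hochberg adjusted p stayed below 0.05 and it differed 2-fold or more. All adjusted p-values in the text are of this kind. A gene needed 10 counts in 3 libraries of a fit to be tested, which 8 of the 10 members passed here (all but PR1 and NIMIN1), with 6 passing in roots alone (not PR2 and PR5) and 8 in shoots alone. PR2 and PR5 passed only through their shoot counts, so their direction was set by the filter and they are left out of the counts here. Of the 6 others, 2 were called higher in roots (EDS5 and NIMIN2) and 1 higher in shoots (SARD1), where 22.1% of all 21338 tested genes were called higher and 21.9% lower in roots. By adjusted p alone 3 of the 6 were higher and 3 lower in roots, against 42.9% and 39.2% of all genes, so most genes differed between these organs. The split of all calls depended on the scaling, with 4717 of 9395 called genes higher in roots under TMM scaling and 7208 of 10778 under library-size scaling. The median log2 difference was 0.33 over these 6 members and 0.04 over all genes.

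Among the synthesis genes, the transporter EDS5 was higher in roots: 12.2 to 21.99 FPKM in the root libraries against 2.52 to 8.73 FPKM in the shoot libraries, with no overlap on this scale. Its log2 difference, roots minus shoots, was 1.14 ± 0.16 (SE, edgeR adjusted p = 1.51e-06, n = 12 libraries per organ). ICS1 differed little in level, with 5.48 to 12.2 FPKM in roots and 4.24 to 18.2 FPKM in shoots. These ranges overlapped broadly. The edgeR log2 difference of ICS1 was -0.71 ± 0.17 (adjusted p = 0.000519), under a fold of 2, and with scaling by library size only it was -0.15 (adjusted p = 0.366). The scaling matters between organs, because library-size scaling moved the median difference of all genes by 0.55 on the log2 scale.

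The regulators went in opposite directions. SARD1 had 0.510 to 4.09 FPKM in roots and 5.34 to 39.3 FPKM in shoots, and no root library reached the lowest shoot library. Its log2 difference was -3.48 ± 0.36 (edgeR adjusted p = 1.75e-08), and the shoot mean was between 6.01 and 8.79 times the root mean in each of the 4 conditions. PAD4 was higher in roots in every condition, with group means of 10.7 to 28.7 FPKM against 3.66 to 10.2 FPKM in shoots. Its log2 difference of 0.98 ± 0.18 (edgeR adjusted p = 5.44e-05) was just under a fold of 2, and with library-size scaling it was 1.54 and called, as it was in 9 of 24 fits without 1 library. EDS1, its partner, had 19.8 to 30.98 FPKM in roots and 11.4 to 48.6 FPKM in shoots. The direction for EDS1 depended on the scaling: the log2 difference was -0.32 ± 0.13 (edgeR adjusted p = 0.0302, passed in 18 of 24 fits without 1 library) with TMM scaling and 0.23 ± 0.13 (adjusted p = 0.102) with library-size scaling. The copy AT3G48080 had 8.02 to 12.4 FPKM in roots and 0.0800 to 1.81 FPKM in shoots, and with the counts of both copies summed the difference of EDS1 was 0.15 (adjusted p = 0.311).

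**Figure D3:**
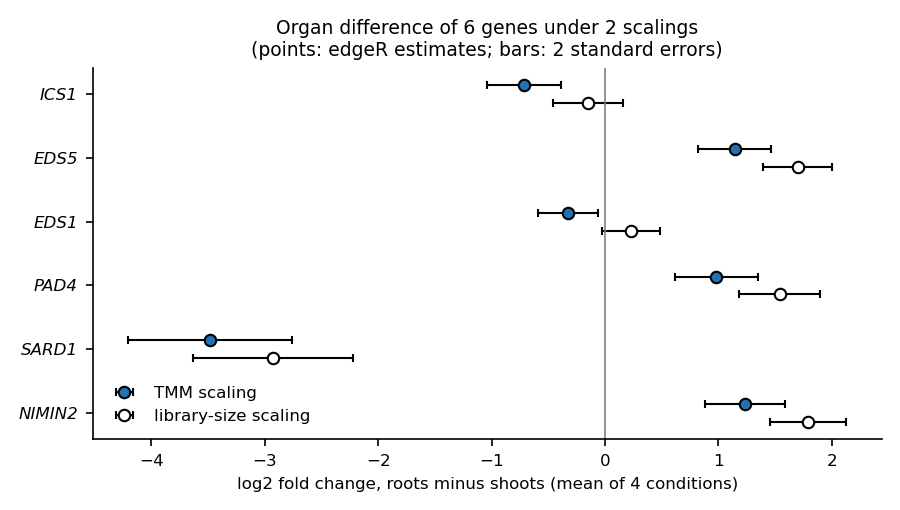
Log2 fold change, roots minus shoots, of the 6 members above the counting floor in both organs (x axis), with TMM scaling (filled) and library-size scaling (open). Bars are 2 standard errors over 24 libraries. SARD1 stays below 0 and EDS5, PAD4 and NIMIN2 above 0 under both, while EDS1 changes sign.

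Of the NPR1 interactors, NIMIN2 was higher in roots: 4.20 to 18.1 FPKM against 1.2 to 5.87 FPKM in shoots. The ranges overlapped across conditions but not within any of the 4, and the log2 difference was 1.24 ± 0.18 (edgeR adjusted p = 1.85e-06). NIMIN1 was near the limit of detection in both organs, with 68 counts in all root and 17 in all shoot libraries. The shoot level was 0.249 times the root level in pooled CPM (95% interval 0.137 to 0.429, counting error only).

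The readout genes were nearly absent from roots. PR1 had 0 counts in the 12 root libraries and 265 in the 12 shoot libraries, so it was at least 88.1-fold higher in shoots against a floor of 3 counts over the 12 root libraries. Neo-tetraploid control shoot replicate 2 held 213 of these counts, and without it the bound was 18.8-fold. PR2 had 6 root and 1611 shoot counts, a ratio of 268 (95% interval 123 to 731). PR5 had 13 root and 1328 shoot counts, a ratio of 102 (59.4 to 192). No root library had over 2 counts of PR2 or over 6 of PR5, and 3 counts in a library amount to 0.252 to 0.268 CPM (counts scaled to library size). These genes were therefore too low to be tested within roots. PR5 had 2 to 6 counts in the neo-tetraploid control root libraries, 0 in the diploid controls and at most 1 in a NaCl root library. In bulk tissue, fewer cells that express a gene and less RNA per cell cannot be told apart.

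Other genes of the pathway, in lists also chosen by name, were called in both directions between the organs, and are counted only where they reached the count minimum without the help of the higher organ. Of 6 other salicylic acid-responsive outputs only PCC1 and GRX480 did so, and PCC1, a small membrane protein gene, was called higher in shoots, with 4.34 to 160 FPKM in shoots and 0 to 3.69 FPKM in roots. The others, LURP1, AIG1, BG3 and PNP-A, had at most 6, 2, 0 and 21 counts in a root library. Of 5 tested genes that conjugate or hydroxylate salicylic acid, 4 were called higher in roots. UGT76B1, a glucosyltransferase of salicylic acid and related defence signals, had 97.6 to 148 FPKM in roots and 0.170 to 1.26 FPKM in shoots, a log2 difference of 6.81 ± 0.14 (edgeR adjusted p = 3.35e-20). Of 8 other synthesis genes, 3 were called higher in roots (PAL1, PAL2 and PAL4) and 1 in shoots (PAL3), all of the phenylalanine ammonia-lyase route. ALD1 and FMO1, which make the systemic signal N-hydroxypipecolic acid, passed only through their root counts, with 2.38 to 7.62 and 0.95 to 9.24 FPKM in roots and at most 1.13 and 0.6 FPKM in shoots. Of 11 genes in the list of receptors, TGA factors and NIMIN3, 3 (TGA1, TGA4 and TGA7) were called higher in roots and NIMIN3 in shoots. Of 11 other regulators 1 (WRKY54) was called higher in roots and 6, including CBP60g (-2.07 ± 0.24) and WRKY70, in shoots. Of 7 genes in the list of the EDS1 module, helper immune receptors and NDR1, 3 were called higher in shoots (NDR1, SAG101 and NRG1.1).

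The control roots compare the ploidies without salt. Any effect of the plant line used cannot be told apart from that of ploidy here. NIMIN2 and PAD4 were about 2-fold higher in neo-tetraploid than in diploid control roots. SARD1 and EDS1 were also higher in all 3 neo-tetraploid libraries than in any diploid one, without passing the adjusted p. ICS1 and EDS5 overlapped. The share of all genes whose groups did not overlap was not counted in this or any other comparison. A lack of overlap therefore describes these libraries only. NIMIN2 had 8.06, 7.77 and 6.53 FPKM in the diploid libraries and 18.1, 14.1 and 14.2 FPKM in the neo-tetraploid ones, corresponding to 38 to 49 and 82 to 105 counts. Every neo-tetraploid library was above every diploid library. The log2 fold change was 1.11 ± 0.23 (edgeR adjusted p = 0.0222, n = 3 per group), a 2.15-fold difference and the only member called of 6 tested, where 0.85% of all 20239 genes were called higher. This call rested on all 6 control libraries. Leaving out any of them raised the adjusted p of NIMIN2 to between 0.0600 and 0.102 with log2 fold changes of 0.96 to 1.16, and leaving out any of the 6 NaCl root libraries did not remove it.

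PAD4 had 13.9, 15.8 and 15.8 FPKM in diploid control roots and 25.2, 33.9 and 27.1 FPKM in the neo-tetraploid ones. The groups were well apart. Its log2 fold change of 0.98 ± 0.16 (edgeR adjusted p = 0.00734) passed the adjusted p and lay just under a fold of 2. By adjusted p alone 2 of 6 members, NIMIN2 and PAD4, were higher, against 1.96% of all genes. EDS1 had 24.2, 22.4 and 22.2 FPKM in diploid and 29.0, 30.3 and 30.98 FPKM in the neo-tetraploid ones. The difference was small but wider than the spread in either group, with a log2 fold change of 0.45 ± 0.11 and an edgeR adjusted p of 0.0508, which missed the threshold. The adjusted p of EDS1 passed, under a fold of 2, with DESeq2 (0.0130) and, in edgeR, with the replicate number as a block (0.0181) and without diploid NaCl replicate 1 (0.0335). In the other settings tried it did not pass. SARD1 had 1.24, 1.32 and 0.980 FPKM in diploid and 1.97, 4.09 and 4.05 FPKM in the neo-tetraploid ones. Its groups did not overlap, but its counts were low and its log2 fold change of 1.56 ± 0.55 did not pass (edgeR adjusted p = 0.193). In edgeR it was called with only the 6 libraries compared (1.56, adjusted p = 0.0303). It was also called without 1 diploid NaCl library (1.56, adjusted p = 0.0170), a library in which SARD1 was at 3.55 FPKM against 0.510 and 0.620 FPKM in the others of its group.

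ICS1 had 7.70, 5.48 and 5.49 FPKM in diploid and 5.88, 7.97 and 5.51 FPKM in the neo-tetraploid ones, and EDS5 had 16.5, 19.8 and 18.3 FPKM and 20.8, 18 and 21.99 FPKM. Both overlapped. Their log2 intervals of 2 standard errors ran from -0.30 to 0.52 for ICS1 and from 0.00 to 0.43 for EDS5. NIMIN1 was at 0.810 to 1.19 FPKM in diploid and 0.850 to 1.87 FPKM in the neo-tetraploid ones and was not tested. The median log2 fold change was 0.71 over the 6 members tested and -0.01 over all genes.

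Other genes around the members were higher in neo-tetraploid control roots as well, mostly regulators. Of 13 other regulators tested, 4 were called higher and none lower: WRKY46 (log2 fold change 3.52 ± 0.40, edgeR adjusted p = 0.00112), WRKY70 (1.68), WRKY53 (1.58) and WRKY18 (1.39), all WRKY transcription factors of defence. WRKY46 had 1.73, 1.79 and 1.84 FPKM in diploid and 17.6, 20.5 and 21.4 FPKM in neo-tetraploid libraries, listed from low to high. Of the outputs, the glutaredoxin gene GRX480 was called higher (1.08), while PCC1 passed the filter only through the neo-tetraploid controls, with 12 to 22 counts there against 0 to 4 in diploid controls. Of 11 genes in the list of receptors, TGA factors and NIMIN3 only NPR3, a salicylic acid receptor gene, was called (1.04 ± 0.10, edgeR adjusted p = 0.00108). None of 10 other synthesis genes, 5 conjugation genes or 7 genes in the EDS1 module list was, with 1, 4 and 4 of them at an unadjusted p under 0.05. Of all 20239 genes, 2953 had such an unadjusted p in this comparison. Markers of rapid stress responses moved in the same libraries: of 8, 3 were called higher (WRKY40 2.57, TCH4 1.43, WRKY33 1.37) and all 8 had an unadjusted p under 0.05, and their summed level was 322 to 486 FPKM in neo-tetraploid and 162 to 179 FPKM in diploid control roots. The summed level of the 6 photosynthesis genes was 87.8 to 156 FPKM in neo-tetraploid and 163 to 245 FPKM in diploid control roots, with 3 of 6 at an unadjusted p under 0.05. The summed level of 4 leaf senescence genes was 32.6 to 37.6 FPKM in neo-tetraploid and 25.1 to 33.2 FPKM in diploid control roots, with SAG12, the defining one, at 0 in both and none of the 3 tested at an unadjusted p under 0.05. The part of these markers in the result was not tested.

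**Figure D4:**
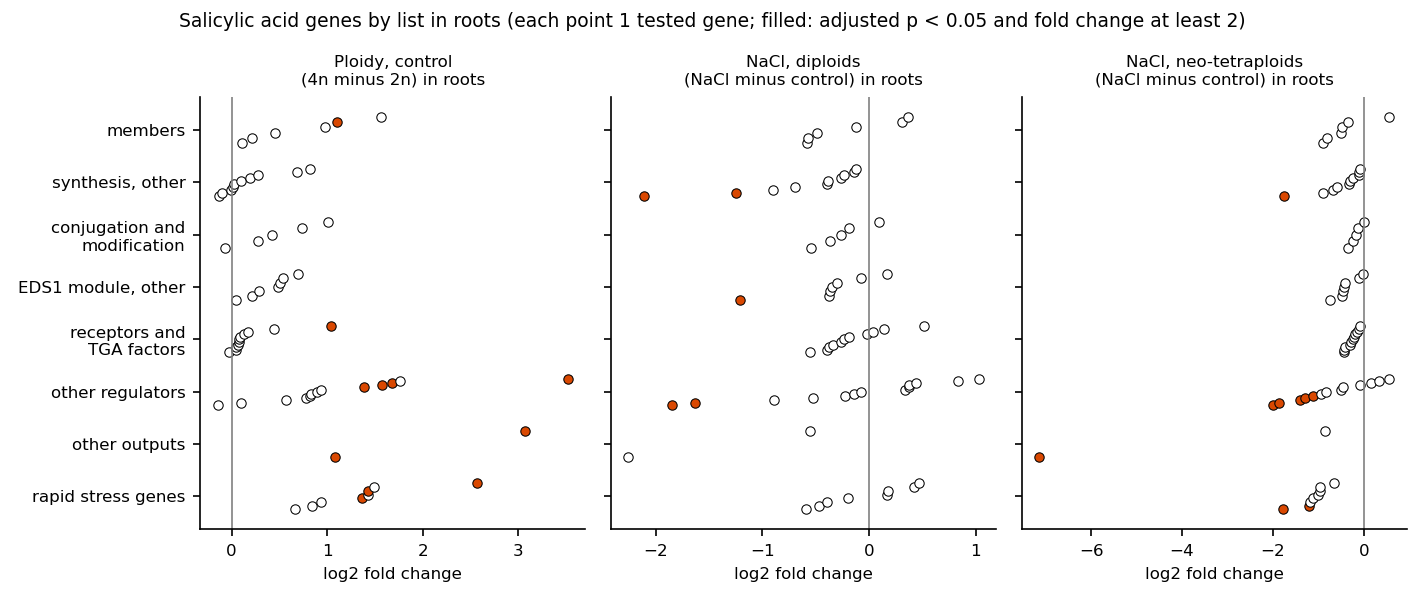
Log2 fold changes in roots (x axis) of the tested genes of each list (y axis; each point 1 gene) by ploidy in controls, by NaCl in diploids and by NaCl in neo-tetraploids. Filled points are the called genes. Other regulators are called higher by ploidy (4 of 13) and lower by NaCl in neo-tetraploids (5 of 13); the far left point and the filled point furthest right among the other outputs are PCC1, which passed the count minimum only through neo-tetraploid control roots and whose fitted values depend on the model.

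In roots grown with NaCl, NIMIN2 and PAD4 were again higher in all 3 neo-tetraploid libraries than in any diploid library, but none of 6 members was called, where 0.124% of all genes were called. NIMIN2 had 7.53, 4.20 and 5.13 FPKM in diploid and 13.5, 9.79 and 14.6 FPKM in neo-tetraploid NaCl roots. The lowest neo-tetraploid library was above the highest diploid one. The log2 fold change of 1.25 ± 0.24 stood beside 1.11 in control roots, with an edgeR adjusted p of 0.0544. NIMIN2 was called by DESeq2 (1.27, adjusted p = 0.00154) and, in edgeR, without diploid NaCl replicate 1 (1.51, adjusted p = 0.0377). It was also called in edgeR with the replicate number as a block (1.26, adjusted p = 0.0120) and with no filter on low counts (1.26, adjusted p = 0.0411). PAD4 had 13.2, 10.5 and 8.39 FPKM in diploid and 17.6, 14.5 and 18.6 FPKM in neo-tetraploid NaCl roots, a log2 fold change of 0.74 ± 0.16 (edgeR adjusted p = 0.0853). Its adjusted p passed, under a fold of 2, with DESeq2 (0.00470) and, in edgeR, with the replicate number as a block (0.0429) and without diploid NaCl replicate 1 (0.0472). In the other settings tried it did not pass. EDS5 was higher by 0.30 ± 0.11 (edgeR adjusted p = 0.247), also without overlap. In all, 3 of 6 members had an unadjusted p under 0.05, as did 3015 of all 20239 genes. Of the listed genes only WRKY70 was called (1.09 ± 0.20, edgeR adjusted p = 0.0456).

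**Figure D5:**
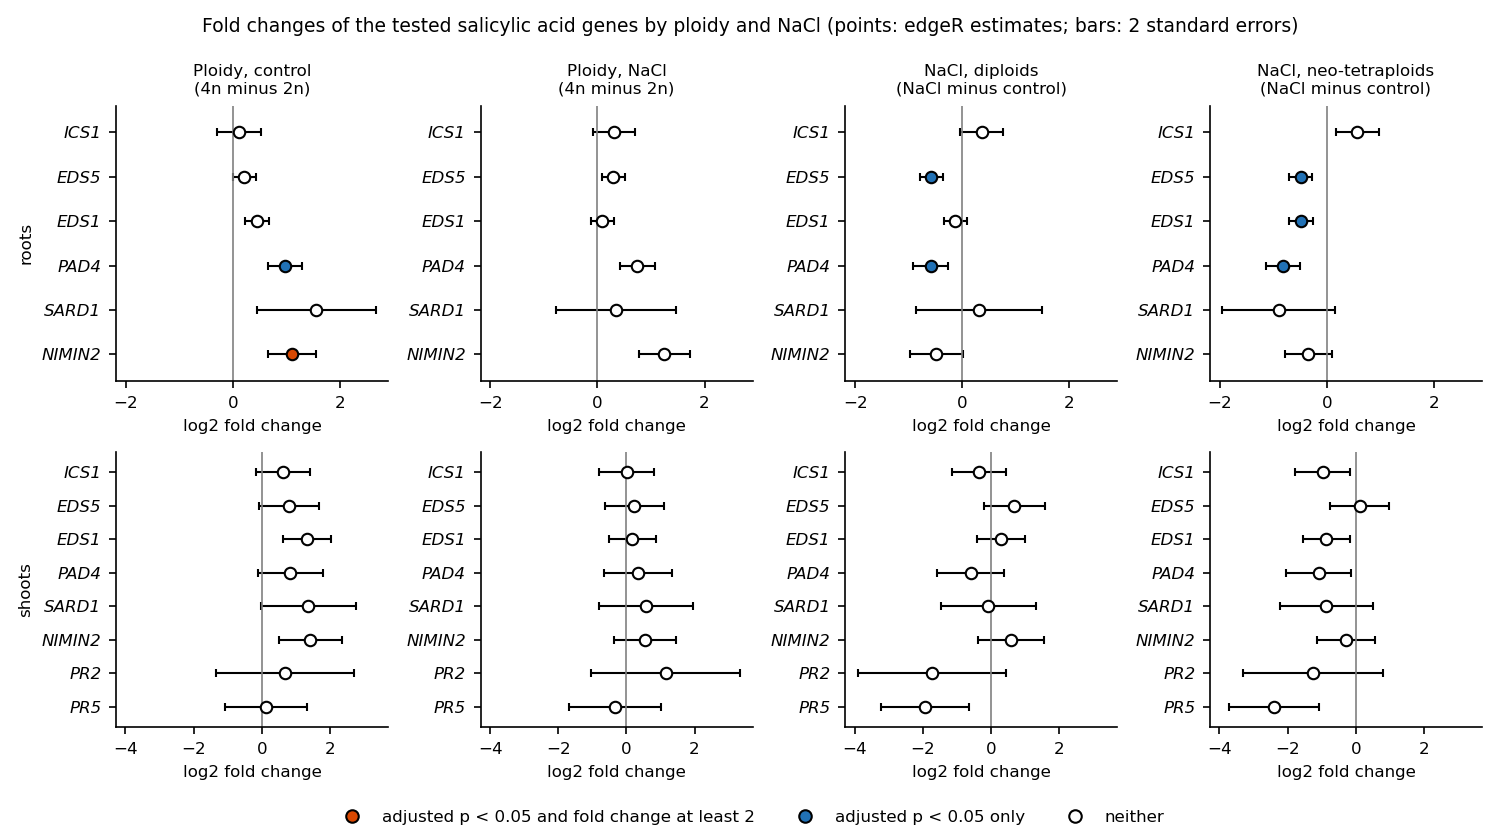
Log2 fold changes of the tested members (x axis) by ploidy and by NaCl, in roots (upper panels, 6 genes) and shoots (lower panels, 8 genes). Points are edgeR estimates and bars 2 standard errors. NIMIN2 in control roots passed both thresholds, PAD4, EDS5 and EDS1 passed the adjusted p alone in the panels where they are blue, and no shoot gene passed either.

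Whether salt itself changes the genes was asked within each ploidy. In diploid roots EDS5 and PAD4 were lower with NaCl, at 0.672 and 0.667 times the control level, and none of 6 members was called at a fold of 2, where 2.82% of all genes were called. EDS5 had 16.5, 19.8 and 18.3 FPKM in control and 13.5, 13.1 and 12.2 FPKM in NaCl libraries. Its groups did not overlap, and its log2 fold change was -0.57 ± 0.11 (edgeR adjusted p = 0.00672). PAD4 had 13.9, 15.8 and 15.8 FPKM in control and 13.2, 10.5 and 8.39 FPKM in NaCl libraries, a log2 fold change of -0.58 ± 0.16 (edgeR adjusted p = 0.0405). The adjusted p of PAD4 rose to between 0.0507 and 0.145 without any of 5 libraries (diploid control 2 or 3, diploid NaCl 2 or 3, neo-tetraploid NaCl 1), and was 0.0712 with library-size scaling, 0.0698 with only the 6 libraries compared, and 0.0708 and 0.0720 with limma on log2(FPKM + 0.1) and log2(FPKM + 1). By adjusted p alone 2 of 6 members were lower, against 6.13% of all genes. ICS1 was not lower: it had 7.70, 5.48 and 5.49 FPKM in control (mean 6.22 ± 1.28, SD) and 10.3, 8.38 and 6.77 FPKM with NaCl. These groups overlapped, with a log2 interval of -0.04 to 0.77.

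The same control groups serve both the ploidy and the salt comparisons, so a high control group enters each of them. In neo-tetraploid roots EDS1, PAD4 and EDS5 were lower with NaCl. PAD4 had 25.2, 33.9 and 27.1 FPKM in control and 17.6, 14.5 and 18.6 FPKM in NaCl libraries. The groups did not overlap, and the log2 fold change was -0.82 ± 0.16 (edgeR adjusted p = 0.0102). EDS1 had 29.0, 30.3 and 30.98 FPKM in control and 23.2, 19.9 and 23.9 FPKM in NaCl libraries, a log2 fold change of -0.48 ± 0.11 (edgeR adjusted p = 0.0210). EDS5 had 20.8, 18 and 21.99 FPKM in control and 14.5, 15.4 and 15.1 FPKM in NaCl libraries, a log2 fold change of -0.49 ± 0.11 (edgeR adjusted p = 0.0180). By adjusted p alone 3 of 6 members were thus lower, against 4.36% of all genes, and none of 6 was called at a fold of 2, where 2.38% of all genes were called. Leaving out 1 neo-tetraploid library raised the adjusted p over the threshold in 4 fits for EDS1 (0.0603 to 0.114), 4 for EDS5 (0.0636 to 0.0878) and 2 for PAD4 (0.0517 and 0.0639). ICS1 went the other way, with 5.88, 7.97 and 5.51 FPKM in control and 12.2, 9.68 and 7.91 FPKM in NaCl libraries. These overlapped slightly, and the log2 fold change of 0.57 ± 0.20 did not pass (edgeR adjusted p = 0.119).

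Several other genes of the pathway were called lower with NaCl in roots. PBS3, the enzyme that joins isochorismate to glutamate on the way to salicylic acid, was at 2.36 to 2.42 FPKM in diploid control and 0.310 to 0.830 FPKM in diploid NaCl roots, a log2 fold change of -2.11 ± 0.32 (edgeR adjusted p = 0.00207). In neo-tetraploid roots PBS3 was at 2.03 to 2.52 FPKM without and 0.450 to 1.11 FPKM with NaCl (-1.75 ± 0.31, edgeR adjusted p = 0.00697). CBP60g, the partner of SARD1, was called lower in diploids (-1.84 ± 0.38) and in neo-tetraploids (-1.996 ± 0.365), with 14.6 to 22.6 (diploid) and 24.1 to 38.1 FPKM (neo-tetraploid) without salt against 2.41 to 9.55 and 6.44 to 10.5 FPKM with it. WRKY54 was also called lower in both. In diploids the called genes further included PAL2 and NDR1. Thus 2 of 10 other synthesis genes, 2 of 13 regulators and 1 of 7 genes in the EDS1 module list (NDR1) were called lower and none higher. In neo-tetraploids 5 of 13 regulators were called lower (CBP60g, WRKY46, WRKY51, WRKY54 and WRKY70), with 1 of 10 synthesis genes. PCC1 had 12 to 22 counts in control and 0 in every NaCl library. Of all 20239 genes, 5207 had an unadjusted p under 0.05 by NaCl in diploid and 4219 in neo-tetraploid roots. Of the 8 rapid stress markers, none was called in diploid roots, with 1 at an unadjusted p under 0.05 and a summed level of 112 to 229 FPKM with NaCl. In neo-tetraploid roots 2 of the 8 (WRKY40 and WRKY33) were called lower and all 8 had an unadjusted p under 0.05, with a summed level of 165 to 201 FPKM with NaCl. None of the 9 root markers was called. Their summed level was 367 to 535 FPKM in diploid control and 275 to 322 FPKM in diploid NaCl roots, with a median log2 fold change of -0.65 and 7 of 9 at an unadjusted p under 0.05, and 372 to 474 and 361 to 412 FPKM in neo-tetraploid roots (-0.26, 3 of 9). The 6 photosynthesis genes had a summed level of 191 to 315 FPKM in neo-tetraploid NaCl roots against 87.8 to 156 FPKM in control, with a median log2 fold change of 0.96 and 1 called higher (LHCB1.3), and 172 to 328 against 163 to 245 FPKM in diploid roots, with none called. The senescence genes summed to 24.5 to 30.2 FPKM with NaCl against 32.6 to 37.6 FPKM in neo-tetraploid roots, where SAG13 was called lower (-2.24), and to 19.4 to 26.4 against 25.1 to 33.2 FPKM in diploid roots, with none called. The part of these markers in the result was not tested.

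The difference between the ploidies in their salt response was tested by the interaction term. None of 6 members was called in roots, where 0.0% of all genes were called, and DESeq2 called none. An unadjusted p under 0.05 was found for 1259 of all 20239 genes and for 1 member. That member was EDS1, whose log2 difference was -0.36 ± 0.16 (edgeR adjusted p = 0.782). For NIMIN2 and PAD4 the intervals of the interaction ran from -0.51 to 0.79 and from -0.69 to 0.22.

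In shoots the members varied far more between replicates than in roots, and no main fit by ploidy or NaCl gave a called member. These fits left out the replicate number, although same-numbered shoot libraries deviated together. Their shares of all genes therefore ignore that pairing. The median coefficient of variation over the 4 groups was 39.2% for PAD4, 39.2% for EDS5 and 19.9% for EDS1 in shoots, against 14.2%, 7.22% and 7.29% in roots. For PR2 it was 102%. A single neo-tetraploid control library, replicate 2, held 80.4% of all PR1 counts of the 12 shoot libraries, 32.2% of those of PR2 and 27.9% of those of PR5, and diploid control replicate 1 ranked next for all 3.

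PR1 had 3.06, 0.350 and 0.120 FPKM in diploid control and 0.360, 25.02 and 0.920 FPKM in neo-tetraploid control shoots. With NaCl it had at most 0.230 FPKM in diploids and 0.580 FPKM in neo-tetraploids. It was not tested, because only 2 shoot libraries had 10 counts or more. PR2 had 23.98, 6.59 and 1.86 FPKM in diploid control, 6.41, 1.89 and 0.840 FPKM in diploid NaCl, 4.31, 36.3 and 8.60 FPKM in neo-tetraploid control and 12.6, 6.09 and 3.20 FPKM in neo-tetraploid NaCl shoots. All 4 groups overlapped. PR5 had 28.2, 11.3 and 8.15 FPKM in diploid control and 3.93, 2.61 and 5.49 FPKM in diploid NaCl shoots, and 6.54, 33.4 and 9.72 FPKM in neo-tetraploid control and 3.77, 2.99 and 3.30 FPKM in neo-tetraploid NaCl shoots. In both ploidies every NaCl library was below every control library. The log2 fold changes of PR5 were -1.93 ± 0.65 in diploids (edgeR adjusted p = 0.176) and -2.40 ± 0.66 in neo-tetraploids (adjusted p = 0.227), which did not pass, while DESeq2 called PR5 in both (adjusted p = 0.0441 and 0.0132). Single libraries set the size of these values: without diploid control replicate 1 the first was -1.24 (edgeR adjusted p = 0.505), and without neo-tetraploid control replicate 2 the second was -1.27 (adjusted p = 0.368). In these salt comparisons edgeR called none of 8 members, where 0.0% of all genes were called in diploids and 0.0104% in neo-tetraploids. An unadjusted p under 0.05 was found for 1 and 4 members, beside 3376 and 2368 of all 19174 genes. None of the senescence genes was called in the same libraries, and the 4 had a summed level of 6.42 to 10.4 FPKM with NaCl against 13.4 to 15.3 FPKM in diploid shoots, and 10.1 to 17.4 against 16.6 to 26 FPKM in neo-tetraploid shoots, with 1 and 2 of the 3 tested at an unadjusted p under 0.05. The 8 rapid stress markers summed to 539 to 1501 FPKM with NaCl against 492 to 625 FPKM in diploid shoots (median log2 fold change 0.67, 3 of 8 at an unadjusted p under 0.05) and to 353 to 661 against 633 to 934 FPKM in neo-tetraploid shoots (-0.75, 4 of 8). The part of these markers was not tested.

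Of the other members in neo-tetraploid shoots, ICS1 had 12.4, 18.2 and 8.72 FPKM in control and 9.38, 6.96 and 4.57 FPKM in NaCl libraries, a log2 fold change of -0.97 ± 0.40 (edgeR adjusted p = 0.371). The groups overlapped. The replicate numbers of the shoot libraries deviated together, and with the number as a block in the model ICS1 passed the adjusted p (0.0296) with a log2 fold change of -0.96, still under a fold of 2. That block raised the number of all genes called by NaCl from 0 to 431 in diploid and from 2 to 183 in neo-tetraploid shoots and called no member. PAD4 (-1.09 ± 0.48, edgeR adjusted p = 0.398) and EDS1 (-0.86 ± 0.35, adjusted p = 0.353) were also lower in the NaCl libraries without passing.

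Between the ploidies in control shoots, edgeR and DESeq2 called none of 8 members, where edgeR called 0.0104% of all genes. An unadjusted p under 0.05 was found for 2 members, beside 1741 of all 19174 genes. NIMIN2 had 1.54, 1.37 and 1.85 FPKM in diploid and 2.24, 4.61 and 5.87 FPKM in neo-tetraploid control shoots. The groups did not overlap, but the log2 fold change of 1.42 ± 0.46 did not pass (edgeR adjusted p = 0.464). EDS1 had 11.4, 18.4 and 13.4 FPKM in diploid and 16.1, 43.0 and 48.6 FPKM in neo-tetraploid control shoots, and SARD1 had 7.01, 14.9 and 9.20 FPKM and 5.34, 34.4 and 39.3 FPKM. For both genes neo-tetraploid replicates 2 and 3 were above every diploid library, while replicate 1 lay among the diploids for EDS1 and below all of them for SARD1. The log2 fold change of EDS1 was 1.34 ± 0.35 (edgeR adjusted p = 0.457), and without neo-tetraploid control replicate 1 it was 1.70 and called (adjusted p = 0.0180). SARD1 was not called without it (1.85, adjusted p = 0.145). EDS1 was also called lower with NaCl in neo-tetraploid shoots without that library (-1.22, adjusted p = 0.0430). In these control shoots the summed level was 633 to 934 FPKM in neo-tetraploids and 492 to 625 FPKM in diploids for the rapid stress markers (1 of 8 at an unadjusted p under 0.05) and 16.6 to 26 and 13.4 to 15.3 FPKM for the senescence genes (2 of 3 tested), with no call in either list. Their part in the result was not tested.

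With NaCl no difference between the ploidies was detectable in shoots: none of 8 members was called by edgeR or DESeq2 or had an unadjusted p under 0.05. Of all 19174 genes 0.0104% were called and 746 had such an unadjusted p. The log2 fold changes of the members lay between -0.34 and 1.16. The interaction of ploidy and NaCl in shoots called none of 8 members, where 0.0% of all genes were called, and DESeq2 called none. Of the members EDS1 alone had an unadjusted p under 0.05 there, at -1.16 ± 0.49 (edgeR adjusted p = 0.9999), beside 558 of all 19174 genes. None of the other genes of the pathway in the lists was called by ploidy or NaCl in shoots. PCC1, named above for roots, was not called either. It had 12.8, 13.97 and 59.3 FPKM in diploid and 109, 124 and 138 FPKM in neo-tetraploid control shoots, listed from low to high, with no overlap.

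The ploidy and salt differences were then compared between the organs in the model of all 24 libraries. The ploidy difference in controls was called different between roots and shoots for none of 8 members, where 0.0% of all genes were called, and DESeq2 called none. Of the members EDS1 alone had an unadjusted p under 0.05 (-0.89 ± 0.38, edgeR adjusted p = 0.9999), beside 910 of all 21338 genes. Without neo-tetraploid control shoot replicate 1 EDS1 was called (-1.25, adjusted p = 0.0315). For the salt difference, averaged over the ploidies, none of 8 members was called, where 1.63% of all genes were called. An unadjusted p under 0.05 was found for 2 members, beside 4765 of all 21338 genes. ICS1 was closest: its salt difference was higher in roots than in shoots by 1.13 ± 0.33 on the log2 scale (edgeR adjusted p = 0.0521). This value sat at the threshold, and DESeq2 (1.12, adjusted p = 0.0207), library-size scaling (1.203, adjusted p = 0.0331) and the replicate block (1.12, adjusted p = 0.00384) called it. So did 5 of 24 fits without 1 library (adjusted p 0.0310 to 0.0497), namely diploid control root 1, neo-tetraploid NaCl root 3, diploid control shoot 3, neo-tetraploid NaCl shoot 1 or neo-tetraploid control shoot 3. EDS5 went the other way, by -0.93 ± 0.32 (edgeR adjusted p = 0.0912), and was called without neo-tetraploid control shoot 3 (-1.10, adjusted p = 0.0481).

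The likeness of other genes to the members was described by the correlation of log2 CPM with the mean of the standardised levels of the tested members, over the 12 libraries of an organ. These libraries share group differences and scaling, so the values describe this set only. In roots the most similar of 19558 genes were AT1G15010 (r = 0.959), AT5G39670 (0.957), AT5G65500 (0.951), the gamma-glutamyl transferase gene GGT1 (0.948) and MPK3 (0.948), a mitogen-activated protein kinase of immune signalling. The members themselves correlated with their mean at 0.952 for PAD4 and 0.933 for NIMIN2 and at 0.0726 for ICS1, which did not follow the others. In both organs this mean includes the member itself, which raises its value. The values of members and of other genes are therefore not comparable. In shoots the most similar of 18303 genes were RLP23 (0.965), a receptor-like protein of immune perception, AT1G10340 (0.965), AT3G28580 (0.959), AT1G13000 (0.957) and FLOT1 (0.935), and the members correlated between 0.511 for EDS5 and 0.907 for PAD4.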

How the data were processed

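RNA was measured in 24 libraries of roots and shoots. Per the sources, the authors mapped reads with HISAT and Bowtie and estimated expression with RSEM. The deposited expected counts are RSEM's estimated counts per gene, not normalized, and the deposited FPKM values were computed by the authors from them. A gene not listed in a library was set to 0. Gene names and coordinates came from RefSeq TAIR10.1, which held 24621 of the identifiers.

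Expected counts were rounded, genes reaching 10 counts in 3 or more libraries of a fit were kept (20239 in roots, 19174 in shoots, 21338 in both), scaled by TMM and tested with edgeR 4.0.16 (quasi-likelihood test, Benjamini-Hochberg), in 1 model per organ with 4 group means and 1 model of all 24 libraries. The SE is the size of the log2 fold change divided by the square root of F. Intervals are 2 SE, and pooled-count intervals cover counting error only. Fold changes were given where the unadjusted p was under 0.05 or the gene was called. Listed genes were named where called, up to 10 per comparison, and some others, such as PCC1 in shoots, are given by level without a call.

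Alternatives were DESeq2 1.42.0, library-size scaling, no filter, no fold threshold, limma 3.58.1 on log2(FPKM + 1) and log2(FPKM + 0.1), only the 6 libraries compared, a replicate block, and each library left out in turn. The fitting code was tested on simulated data. Summing EDS1 with its copy and leaving out shoot libraries from the pooled PR1 counts were chosen after seeing the data. Same-numbered shoot libraries deviated together in 18 of 18 pairs (correlation 0.127 to 0.792) and root libraries in 16 of 18 (-0.02 to 0.510), so by a threshold of 0.1 the numbers were taken to pair the shoots only. The main shoot fits still left this pairing out, and the replicate block shows what it changes. The members and gene lists were chosen with earlier results of these data known. The promoter window of 1 member is not reported here.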

Additional observations from a re-analysis of the deposited data

Results flagged for a closer look

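The salt difference of CBP60g, the partner of SARD1 in activating ICS1, differed between the organs by -1.67 ± 0.47 on the log2 scale (edgeR adjusted p = 0.0426). It was lower with NaCl in roots of both ploidies, whereas in shoots its NaCl libraries had 24.9 to 47.0 FPKM in diploids and 12.6 to 46.0 FPKM in neo-tetraploids against 16.7 to 32.2 and 30.2 to 69.8 FPKM in control. None of the 8 members tested was called in this comparison.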

How the results depend on the processing

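Under the settings tried, 275 of 304 counts of called members stayed at the value reported or within 1.5 times of it. Most comparisons started from 0 called, and the counts do not say which member was called. In control roots between the ploidies the count stayed at 1 in fits without diploid control 2 or neo-tetraploid control 1 or 3. There PAD4 was called in place of NIMIN2. In control roots between the ploidies (1 called) the count was 2 without a fold threshold, 2 with only the 6 libraries compared, 0 with limma on log2(FPKM + 1), and 0 to 2 with a library left out. In NaCl roots between the ploidies (0 called) DESeq2, no filter on low counts and the replicate block each called 1, NIMIN2, and fits without a library called 0 to 1. Same-numbered root libraries deviated together in 16 of 18 pairs, which was not taken as pairing. The main fits of both organs left the replicate number out, and for roots the block is given as a check. It also gave EDS1 an adjusted p of 0.0181 by ploidy in control roots and ICS1 one of 0.0274 by NaCl in neo-tetraploid roots. Without a fold threshold the NaCl count was 2 in diploid and 3 in neo-tetraploid roots, and the organ count, with PR2 and PR5, was 8 against 5. In shoots DESeq2 called 1, PR5, by NaCl in each ploidy, and fits without a library called 0 to 1 by ploidy in controls and by NaCl in neo-tetraploids. The organ difference of the ploidy effect gave 0 to 1 without a library. For the organ difference of the salt effect (0 called) the count was 1 with DESeq2, library-size scaling, limma on log2(FPKM + 0.1) and the replicate block, 2 with limma on log2(FPKM + 1), and 0 to 2 without a library. The organ difference of EDS1 (-0.32) changed sign to 0.23 with library-size scaling, 0.26 and 0.27 with limma on log2(FPKM + 1) and log2(FPKM + 0.1), and 0.15 with its copy summed. Over all genes, the replicate block called 317 against 201 by ploidy in control roots, 96 against 25 in NaCl roots and 527 against 348 for the organ difference of the salt effect. DESeq2 called 79 against 25 by ploidy in NaCl roots, 13 against 0 for the root interaction, and in shoots 64 and 12 against 2 by ploidy (control, NaCl) and 242 against 0 and 229 against 2 by NaCl (diploid, neo-tetraploid). Fewer genes were called by limma on log2(FPKM + 1), at 6 against 25 by ploidy in NaCl roots, 126 against 201 in control roots, 361 against 570 by NaCl in diploid and 294 against 482 in neo-tetraploid roots. The count by ploidy in NaCl roots was also lower with library-size scaling (13), limma on log2(FPKM + 0.1) (12) and only the 6 libraries compared (12). The cause was not tested. Low counts limit NIMIN1 and PR1 everywhere and PR2 and PR5 in roots.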
